A study of Mus musculus with 10 samples.

Results

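Eif1ad3, Eif1ad7, Eif1ad8 and Eif1ad15 are multicopy genes of the mouse, 4 of the 54456 genes in the deposited expression table. They were picked by name from among 17 numbered Eif1ad copies in that table, with their measured levels in these libraries known. Their own levels are therefore described without a test, and tests are given only for genes that the choice did not use. The gene lists tested were themselves chosen with earlier results of these data known. The values come from RNA-seq of C57BL/6J mouse embryonic stem cells, in a study that rewrote the Taf1 locus to model X-linked dystonia parkinsonism, a movement disorder tied to an SVA retrotransposon insertion in human TAF1. The 7 libraries described here carried values in the table, and the other 3 of the 10 samples (stem cells before conversion and 2 striatal samples) were not analysed here.

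The wild-type group (WT) was 1 library of the line MK6. The converted groups, with 2 libraries each, were conv-dSVA_F, then conv-dSVA_D, and conv-dSVA_F&D, in which both are deleted. All 6 converted libraries share a loxP site in Taf1 intron 24, the Cas9 plasmid steps (pSpCas9 and pSpCas9GFP), the LPSwapinRed construct at Taf1, a humanized and then mousified TAF1 segment, and conversion with the Cre plasmid pCAGiCre. They differ in the deletion named: SVA_F (SVAdel in the genotype), SVA_D (dSVA2) or both. All cells were grown on gelatin in serum medium with LIF, CHIR99021 (which inhibits GSK3) and PD0325901 (which inhibits MEK). The labels give 1 line per genotype, no clone and no statement that the 2 libraries of a group were separate cultures. Genotype and line therefore cannot be told apart, and p-values measure only how these samples vary, in part perhaps for technical reasons.

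Eukaryotic initiation factor 1A is a small protein that binds the ribosomal small subunit, helps it scan the messenger RNA and takes part in choosing the start codon. Eif1ax and Eif1a encode it in mouse somatic and stem cells, and Eif1ad encodes a related nuclear protein with an eIF1A-type domain. Multicopy Eif1a-like genes are known from the 2-cell mouse embryo, the stage at which the embryo's own genome is first broadly transcribed. A small, changing minority of cultured embryonic stem cells enters a 2-cell-like state in which the Zscan4 genes and other genes of that stage are switched on. In bulk samples such as these, fewer cells in a state and less RNA per cell cannot be told apart.

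All values below are normalized counts, which are gene counts divided by 1 size factor per library. They are not divided by gene length, so levels are compared between libraries and not between genes. The sources used here do not give how reads that match several copies were assigned. Reads may have been split or lost among the copies, and the value of a single copy is less certain than the sum. None of the 17 copies matched an entry by symbol in the reference tables used here, so no position is given for them.

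In all 4 genes the wild-type library was the highest and the conv-dSVA_D libraries were the lowest. The conv-dSVA_F and conv-dSVA_F&D libraries lay between them and overlapped each other. Summed over the 4 genes, conv-dSVA_D stood 4.32-fold below conv-dSVA_F&D and 6.33-fold below conv-dSVA_F, and the converted groups together stood 6.28-fold below the wild type.

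Eif1ad15, the copy with the highest count in the wild type, was at 1274 normalized counts in that library. It was at 309.7 and 198 in the conv-dSVA_F libraries (replicate 1 first), at 24.97 and 48.2 in the conv-dSVA_D pair, and at 199 and 178 in conv-dSVA_F&D. The wild-type library lay above all 6 others, and both conv-dSVA_D libraries lay below all 5 others. The mean for conv-dSVA_F was 254 ± 79.0 (SD, n = 2), with 36.6 ± 16.4 (SD, n = 2) for the conv-dSVA_D pair and 188 ± 14.4 (SD, n = 2) for conv-dSVA_F&D. The log2 ratio of group means was 2.37 for conv-dSVA_F&D over conv-dSVA_D and 2.79 for conv-dSVA_F over conv-dSVA_D. Without conv-dSVA_D replicate 2, the higher of that pair, these ratios were 2.92 and 3.35.

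Eif1ad7 was at 879 normalized counts in the wild type. It was at 385 and 156 in conv-dSVA_F, at 32.6 and 48.2 in the conv-dSVA_D pair, and at 212 and 131 in conv-dSVA_F&D. The order of the groups was that of Eif1ad15, with the widest gap between replicates in conv-dSVA_F, where replicate 1 was the higher. The mean for conv-dSVA_F was 270.5 ± 161 (SD, n = 2), with 40.4 ± 10.97 (SD, n = 2) for the conv-dSVA_D pair and 172 ± 57.6 (SD, n = 2) for conv-dSVA_F&D. The log2 ratios to conv-dSVA_D were 2.09 for conv-dSVA_F&D and 2.74 for conv-dSVA_F, and the latter was 1.95 without conv-dSVA_F replicate 1.

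Eif1ad3 was at 378 normalized counts in the wild type. It was at 137 and 45.7 in conv-dSVA_F, at 18.2 and 14.7 in the conv-dSVA_D pair, and at 79.7 and 36.2 in conv-dSVA_F&D. Replicates 1 and 2 of conv-dSVA_F differed more for Eif1ad3 than did the means of conv-dSVA_F and conv-dSVA_F&D. The mean for conv-dSVA_F was 91.3 ± 64.55 (SD, n = 2), with 16.5 ± 2.503 (SD, n = 2) for the conv-dSVA_D pair and 57.9 ± 30.7 (SD, n = 2) for conv-dSVA_F&D. The log2 ratio to conv-dSVA_D was 1.81 for conv-dSVA_F&D, and 1.14 without conv-dSVA_F&D replicate 1. For conv-dSVA_F it was 2.47, and 1.47 without conv-dSVA_F replicate 1.

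Eif1ad8 was at 322 normalized counts in the wild type. It was at 152 and 96.5 in conv-dSVA_F, at 28.8 and 17.96 in the conv-dSVA_D pair, and at 98.9 and 75.2 in conv-dSVA_F&D. Of the 4 genes, Eif1ad8 had the smallest ratio of the wild type to the converted groups, 4.11-fold, against 5.46-fold for Eif1ad7, 6.83-fold for Eif1ad3 and 7.98-fold for Eif1ad15. The mean of Eif1ad8 for conv-dSVA_F was 124 ± 39.5 (SD, n = 2), with 23.4 ± 7.67 (SD, n = 2) for the conv-dSVA_D pair and 87.0 ± 16.7 (SD, n = 2) for conv-dSVA_F&D. Its log2 ratios to conv-dSVA_D were 1.90 for conv-dSVA_F&D and 2.41 for conv-dSVA_F.

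**Figure D1:**
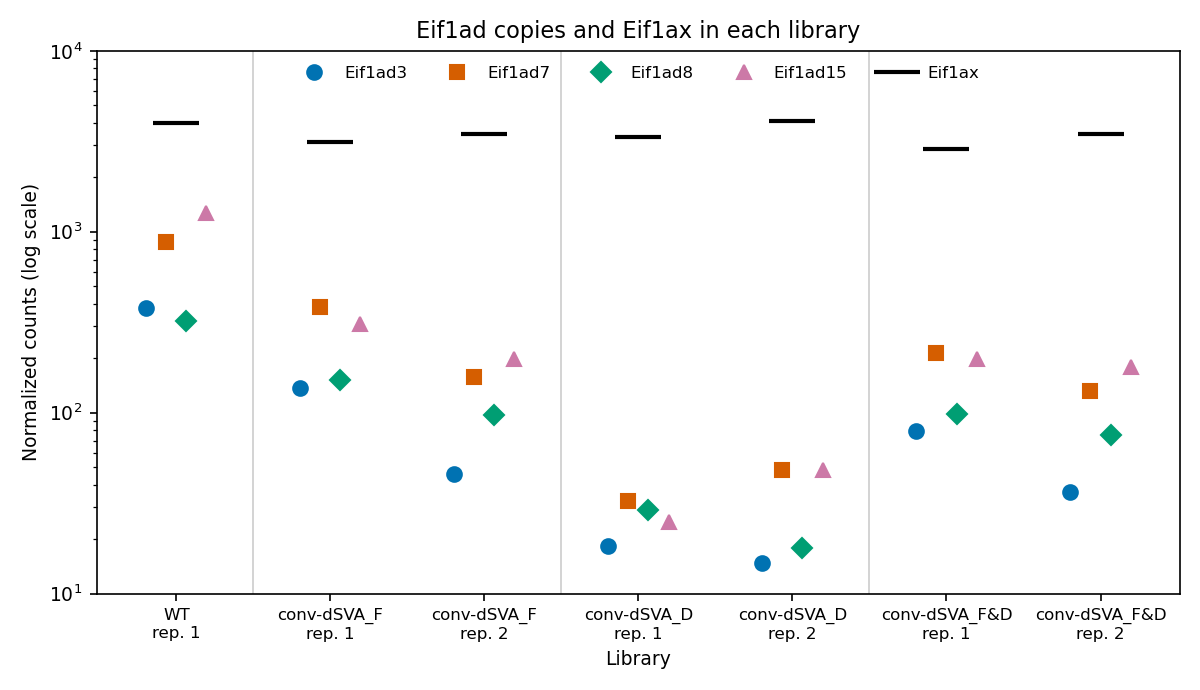
Normalized counts (vertical, log scale) of Eif1ad3, Eif1ad7, Eif1ad8 and Eif1ad15 (coloured symbols) and of Eif1ax (black bars) in each of the 7 libraries (horizontal), 1 point per gene and library. The 4 copies are highest in the wild type and lowest in both conv-dSVA_D libraries, while Eif1ax stays between 2849 and 4081. Counts are not per gene length.

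The sum of the 4 genes was highest in the wild-type library, at 2852 normalized counts. It was 984 and 497 in the conv-dSVA_F libraries (replicate 1 first), 105 and 129 in the conv-dSVA_D pair, and 589.6 and 421 in conv-dSVA_F&D. From high to low the libraries ran wild type, conv-dSVA_F replicate 1, conv-dSVA_F&D replicate 1, conv-dSVA_F replicate 2, conv-dSVA_F&D replicate 2, conv-dSVA_D replicate 2 and conv-dSVA_D replicate 1. Against the wild type they stood at 34.5%, 20.7%, 17.4%, 14.8%, 4.52% and 3.67% from the second place down. The gap between conv-dSVA_F&D replicate 2 and conv-dSVA_D replicate 2 was, as a ratio, the widest between neighbouring converted libraries. Libraries of conv-dSVA_F and conv-dSVA_F&D alternated in the order, so these groups did not differ beyond their own spread.

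The mean of the sum for conv-dSVA_F was 740.1 ± 344 (SD, n = 2), with 117 ± 17.2 (SD, n = 2) for the conv-dSVA_D pair and 505 ± 119.5 (SD, n = 2) for conv-dSVA_F&D. The log2 ratio of conv-dSVA_F&D over conv-dSVA_D was 2.11 and that of conv-dSVA_F over conv-dSVA_D was 2.66. These comparisons share the conv-dSVA_D libraries and are not separate evidence of a low level there. The log2 ratio of conv-dSVA_F&D over conv-dSVA_F was -0.55, and without conv-dSVA_F replicate 1 it was 0.03. The pooled SD between replicates was 0.47 on the log2 scale.

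All 4 genes had both conv-dSVA_F&D libraries above both conv-dSVA_D libraries, an arrangement found in 25.1% of the 15240 genes with a mean of at least 10 normalized counts. All 4 likewise had conv-dSVA_F above conv-dSVA_D without overlap, as did 26.4% of those genes. All 4 had the wild-type library above the 6 converted libraries, as did 19% of those genes. The genes were chosen with these levels in view, so nothing is read from those counts. The same arrangements held in all 4 genes with total gene reads and with TMM factors in place of the deposited size factors.

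The read numbers behind the sum were 2613 in the wild type, 1156 and 489 in conv-dSVA_F, 109 and 158 in the conv-dSVA_D pair, and 644 and 302 in conv-dSVA_F&D. Of all gene reads this was 123 ppm in the wild type, 46.5 and 22.9 in conv-dSVA_F, 4.87 and 5.95 in the conv-dSVA_D pair, and 27.4 and 18.2 in conv-dSVA_F&D. The lowest count of a single copy was 18 reads (Eif1ad3, conv-dSVA_D replicate 2), so all 4 copies were detected in all 7 libraries. The levels in conv-dSVA_D are the least precise, since they rest on the fewest reads.

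The 13 other numbered copies (Eif1ad2, 4, 6, 9 to 14 and 16 to 19) showed the same order of groups in their sum. That sum was 1229 normalized counts in the wild type, 397 and 189.9 in conv-dSVA_F, 15.4 and 59.6 in the conv-dSVA_D pair, and 234 and 174 in conv-dSVA_F&D. Of the 17 copies, 16 had a read in the wild type and in each conv-dSVA_F library. In conv-dSVA_D replicates 1 and 2 it was 7 and 13 copies, and in conv-dSVA_F&D 15 and 12. A copy with no read could have had up to 3 reads, which is 2.45 to 4.18 normalized counts depending on the library. This limit covers counting error only.

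Among the 13 other copies, 9 had both conv-dSVA_F libraries above both conv-dSVA_D libraries, 6 had conv-dSVA_F&D above conv-dSVA_D, and 12 had the wild type above all converted libraries. The exception to the last was Eif1ad9, which had 1 read in conv-dSVA_F replicate 1 and none elsewhere. Eif1ad18 had 13 reads in the wild type and 1 read among the converted libraries, in conv-dSVA_F replicate 2. These 2 copies did not reach a mean of 10 normalized counts, and the 4 chosen copies and the 11 remaining ones did. Of all genes with such a mean, 26.4% had conv-dSVA_F above conv-dSVA_D without overlap, and 25.1% had conv-dSVA_F&D above conv-dSVA_D. The wild type lay above all converted libraries in 19% of them. Eif1ad4, Eif1ad11, Eif1ad14 and Eif1ad17 reached that mean only through the wild type. Their averages over the converted groups were 9.585, 8.883, 7.855 and 7.088. For these copies the filter itself favoured a high wild type, so the 12 copies cannot be weighed against the 19%. Reads may be shared among copies, so the copies are not independent of each other.

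Eif1ad10, the most abundant of the other copies by count, was at 224 normalized counts in the wild type, 98.7 and 23.4 in conv-dSVA_F, 0 and 11.4 in the conv-dSVA_D pair, and 49.4 and 46.0 in conv-dSVA_F&D. Eif1ad19 was at 143 in the wild type, 60.4 and 33.5 in conv-dSVA_F, 13.4 and 11.4 in the conv-dSVA_D pair, and 28.4 and 9.75 in conv-dSVA_F&D. Eif1ad19 thus overlapped between conv-dSVA_F&D and conv-dSVA_D, unlike the 4 chosen copies. It was also the only other copy with more than 3 reads in conv-dSVA_D replicate 1. Eif1ad4 was at 48.0 in the wild type and had no read in either conv-dSVA_D library or in conv-dSVA_F&D replicate 2.

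**Figure D2:**
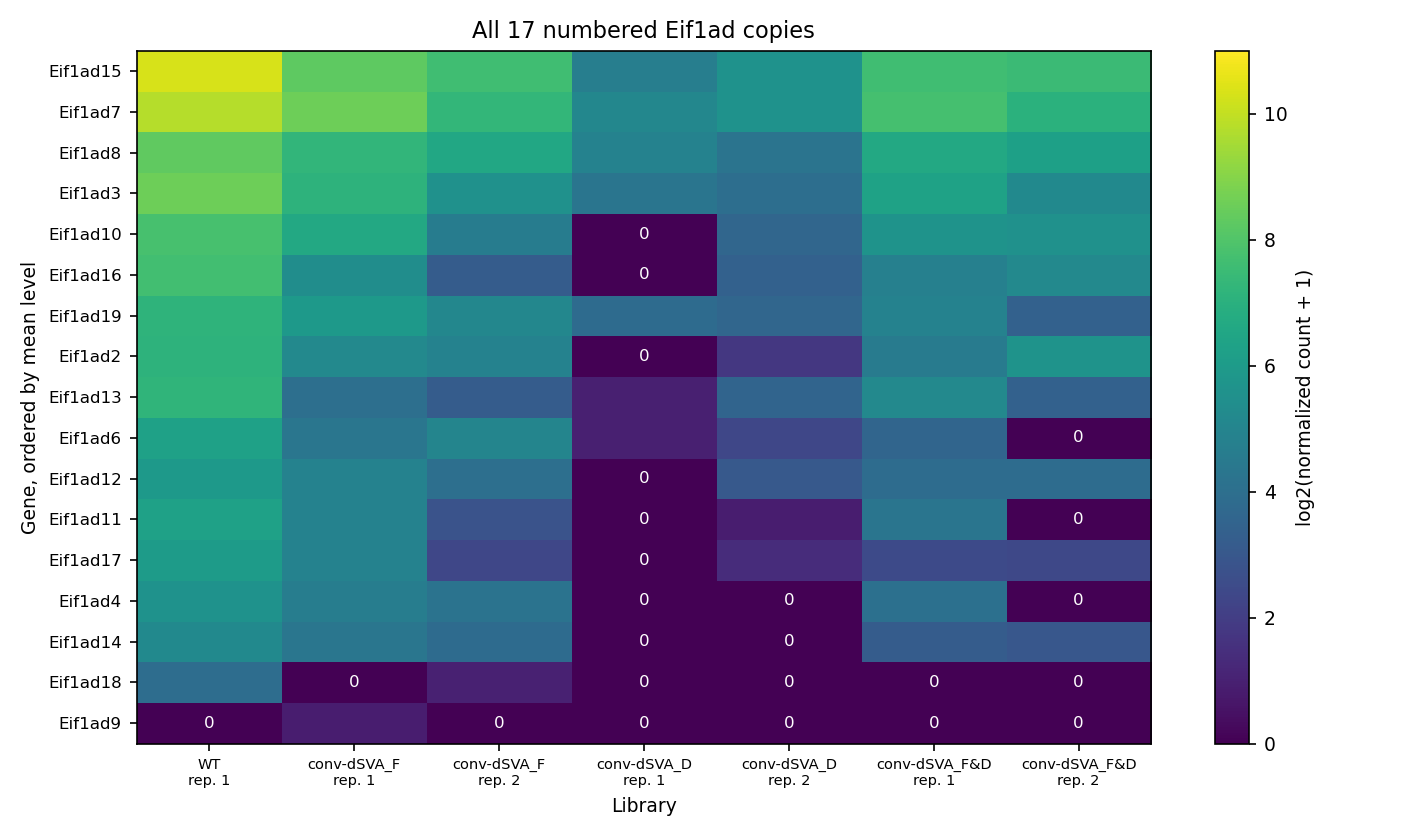
Heat map of log2(normalized count + 1) for the 17 numbered Eif1ad copies (rows, ordered by mean level) in the 7 libraries (columns), where 0 marks a copy with no read. The 4 chosen copies fill the top rows, and conv-dSVA_D replicate 1 has 10 copies at 0.

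The 4 chosen copies made up 69.9% of the reads on all 17 copies in the wild type. Their share was 71.2% and 72.3% in conv-dSVA_F, 87.2% and 68.4% in the conv-dSVA_D pair, and 71.6% and 70.7% in conv-dSVA_F&D. Only conv-dSVA_D replicate 1 stood apart among these 7 libraries, on 125 reads, with a 95% Wilson interval of 80.2% to 92.0%. Its own replicate, conv-dSVA_D replicate 2, had an interval of 62.1% to 74.1%. These intervals cover counting error only.

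Within the 4, Eif1ad15 took 44.7% of the reads in the wild type (95% Wilson interval 42.8% to 46.6%). It took 31.5% and 39.9% in conv-dSVA_F, 23.9% and 37.3% in the conv-dSVA_D pair, and 33.7% and 42.4% in conv-dSVA_F&D. Replicates differed as much as groups did: the intervals of conv-dSVA_F replicates 1 (28.9% to 34.2%) and 2 (35.6% to 44.3%) did not overlap. Eif1ad7 took 30.8% in the wild type and 31.1% to 39.1% in the converted libraries. Eif1ad8 ran from 11.3% in the wild type to 27.5% in conv-dSVA_D replicate 1, and Eif1ad3 from 8.61% in conv-dSVA_F&D replicate 2 to 17.4% in conv-dSVA_D replicate 1. All 6 converted libraries had a larger share of Eif1ad8 and a smaller share of Eif1ad15 than the wild type, although for Eif1ad15 in replicate 2 of each converted group the intervals overlapped that of the wild type, as did that of Eif1ad8 in conv-dSVA_D replicate 2 (9.38% to 20.2%, against 10.1% to 12.6%).

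**Figure D3:**
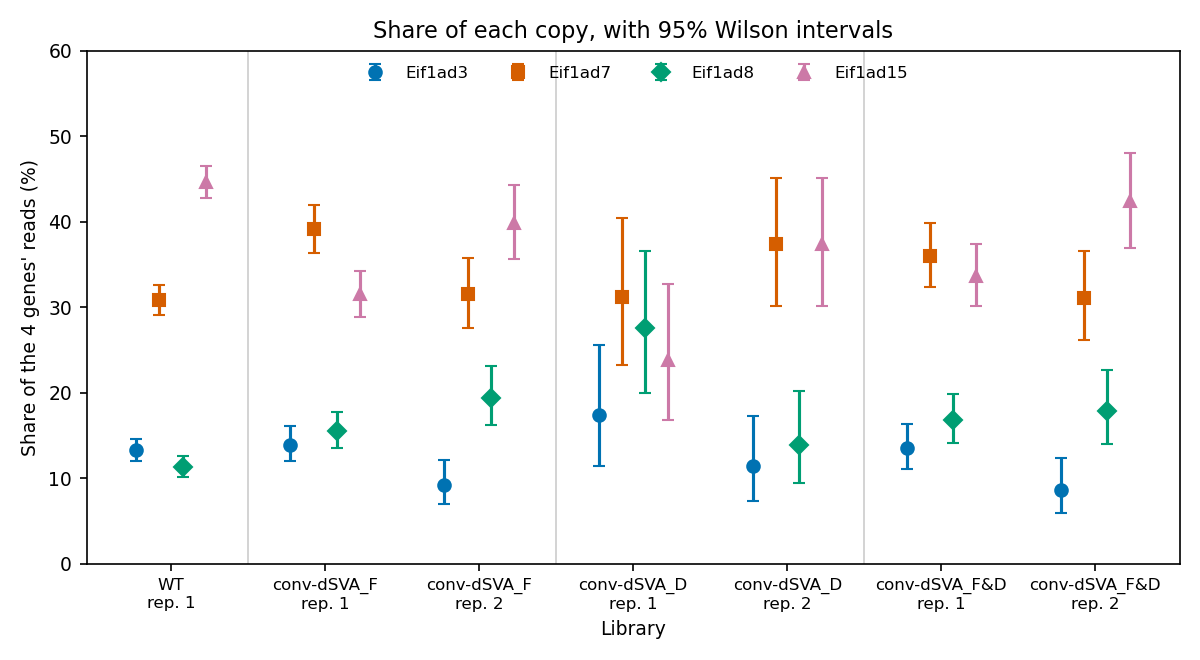
Share of the reads on Eif1ad3, Eif1ad7, Eif1ad8 and Eif1ad15 taken by each (vertical, percent) in the 7 libraries (horizontal), with 95% Wilson intervals from the read counts. Intervals are widest in conv-dSVA_D, where the 4 genes had 109 and 158 reads, and Eif1ad15 is at 44.7% in the wild type and 23.9% in conv-dSVA_D replicate 1.

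Eif1ax, the gene used for scale, did not show this pattern. Eif1ax (ENSMUSG00000067194) is on chromosome X, plus strand, from 159372178 to 159389928 in GRCm38. It was at 3982 normalized counts in the wild type, 3113 and 3459.95 in conv-dSVA_F, 3345 and 4081 in the conv-dSVA_D pair, and 2849 and 3462 in conv-dSVA_F&D. Its groups overlapped in every comparison, and a conv-dSVA_D library, low for the multicopy genes, was its highest.

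In limma, which fitted all 15240 genes, the log2 difference of Eif1ax between conv-dSVA_F&D and conv-dSVA_D was -0.23 ± 0.14 (SE, 95% interval -0.55 to 0.08, adjusted p = 0.396). Between conv-dSVA_F and conv-dSVA_D it was -0.17 (95% interval -0.49 to 0.14, limma adjusted p = 0.604), and between conv-dSVA_F&D and conv-dSVA_F -0.06 (95% interval -0.38 to 0.25, limma adjusted p = 0.842). The converted groups differed from the wild type by -0.24 (95% interval -0.58 to 0.10, limma adjusted p = 0.442). These intervals hold no Eif1ax difference as large as the log2 ratios of the summed multicopy genes to conv-dSVA_D or to the wild type.

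The other relatives also failed the test in all 4 comparisons. Eif1a (ENSMUSG00000057561) was at 9051 normalized counts in the wild type, 7252 and 6839 in conv-dSVA_F, 7062 and 6774 in the conv-dSVA_D pair, and 7013 and 11186 in conv-dSVA_F&D. Its high value in conv-dSVA_F&D replicate 2 came with a shift of its chromosome: the median log2 difference to the wild-type library over 266 genes of chromosome 18 was 0.51 in that library and -0.10 to -0.03 in the 5 other converted libraries. The part of that shift in the Eif1a level was not tested. Eif1ad (ENSMUSG00000024841), which carries the name of the family without a number, ranged from 1725 in conv-dSVA_F&D replicate 1 to 2498 in conv-dSVA_F replicate 1.

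Other genes of the translation start were examined as a list of 24 factors that load the small ribosomal subunit, all of which could be tested. Of these, 0 passed between conv-dSVA_F&D and conv-dSVA_D with limma (4 higher and 2 lower at an unadjusted p under 0.05, and 0 with edgeR or DESeq2). In that comparison 1.96% of all genes tested were called higher and 1.21% lower. Between conv-dSVA_F and conv-dSVA_D also 0 passed with limma (1 at an unadjusted p under 0.05, and 0 with edgeR or DESeq2), with 1.08% of all genes called higher and 0.262% lower. The list's median log2 differences were 0.05 and -0.11, and the medians of all genes were 0.00 and -0.01. Eif2s3y, the Y-linked gene of an eIF2 subunit, stood apart from these medians: it was at 660.3 and 977 normalized counts in conv-dSVA_F, 211 and 156 in the conv-dSVA_D pair, and 1327 and 184 in conv-dSVA_F&D. Its log2 differences to conv-dSVA_D of 2.14 for conv-dSVA_F and 1.44 for conv-dSVA_F&D did not pass (limma adjusted p = 0.157 and 0.28).

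Eif1, which works beside eIF1A in start codon choice, was the 1 listed factor that rose in conv-dSVA_F&D over conv-dSVA_F, by a log2 difference of 0.66 ± 0.15 (limma adjusted p = 0.0408). In that comparison 1.71% of all genes were called higher and 2.21% lower. The call was lost without either conv-dSVA_F library (adjusted p = 0.143 and 0.186), without either conv-dSVA_D library (0.0721 and 0.072) and without conv-dSVA_F&D replicate 1 (0.085). Eif3b, a subunit of the scaffold factor eIF3, was the 1 listed factor that rose in the converted groups over the wild type, by 0.85 ± 0.12 (limma adjusted p = 0.0237), where 0.623% of all genes were called higher and 0.525% lower. The wild type is 1 library whose spread was taken from the converted groups, so that SE holds no measured spread of the wild type. That call was lost without conv-dSVA_F replicate 2 or either conv-dSVA_D library (adjusted p = 0.0657, 0.088 and 0.061).

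Genes of the 2-cell-like state were examined as a list of 24, of which 22 were in the table under their symbol and 15 could be tested. The list was chosen with earlier results of these data known and holds no Eif1ad copy. Summed over the 22, normalized counts were 3436 in the wild type, 1369.9 and 796 in conv-dSVA_F, 116 and 171 in the conv-dSVA_D pair, and 1030.03 and 606 in conv-dSVA_F&D. This is the order of groups seen for the 4 Eif1ad copies. Duxf3, which encodes the transcription factor that opens the 2-cell programme, was listed at 0 in all 7 libraries. How reads that match several places were assigned is not given, so this 0 does not show that the gene was silent.

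Between conv-dSVA_F&D and conv-dSVA_D, 6 of the 15 genes rose and 0 fell with limma, against the 1.96% of all genes that were called higher. Zscan4a, of the cluster of zinc-finger genes that marks the state, was at 9.60 and 15.5 normalized counts in conv-dSVA_D and at 199 and 93.3 in conv-dSVA_F&D (log2 difference 3.38 ± 0.44, limma adjusted p = 0.00955). Tmem92, a transmembrane protein gene, was at 9.60 and 11.4 and at 174 and 102 (3.55 ± 0.42, limma adjusted p = 0.00874). Zscan4d (2.42, adjusted p = 0.0161), Zscan4c (2.56, adjusted p = 0.0226), Zscan4e (3.45, adjusted p = 0.0329) and Tcstv3 (3.63, adjusted p = 0.0495) also rose, and Tcstv3 rested on 0 and 0.82 normalized counts in conv-dSVA_D. With a pseudocount of 5 in place of 1, the Tcstv3 difference was 1.95 (adjusted p = 0.101). Of the 9 genes that did not pass, Zfp352 had the largest log2 difference (3.85, adjusted p = 0.0604) and Usp17la the smallest (0.13, adjusted p = 0.961), with Zscan4b, Zscan4f, Tcstv1, Usp17lb, Usp17lc, Usp17le and Arg2 between them. The median over the 15 was 2.15. No gene of the list passed without conv-dSVA_D replicate 1. In this and the other comparisons, none passed with no filter on low values or with no variance trend.

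Between conv-dSVA_F and conv-dSVA_D, 5 of the 15 rose and 0 fell with limma, where 1.08% of all genes were called higher. They were Zscan4d (3.46 ± 0.39, adjusted p = 0.0114), Tmem92 (3.55, adjusted p = 0.0118), Zscan4a (3.33, adjusted p = 0.0151), Zscan4c (2.97, adjusted p = 0.0224) and Tcstv3 (4.51, adjusted p = 0.0371). With a pseudocount of 5, Tcstv3 had 2.71 (adjusted p = 0.0517). The median over the 15 was 2.41. The count was 0 without conv-dSVA_F replicate 1 or either conv-dSVA_D library and 3 without conv-dSVA_F replicate 2. It was 8 without either conv-dSVA_F&D library. This comparison shares the conv-dSVA_D libraries with the one before.

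Between conv-dSVA_F&D and conv-dSVA_F, where the 4 Eif1ad copies overlapped, 0 of the 15 passed with limma, edgeR or DESeq2, and 0 were higher and 2 lower at an unadjusted p under 0.05. Zscan4d was at 242 and 142 in conv-dSVA_F and at 110 and 72.4 in conv-dSVA_F&D, a log2 difference of -1.05 that did not pass (95% interval -1.92 to -0.18, limma adjusted p = 0.168). Zscan4a differed by 0.04 (95% interval -0.93 to 1.02, limma adjusted p = 0.968).

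Against the wild type, 4 of the 15 fell in the mean of the converted groups with limma, where 0.525% of all genes were called lower, and 10 fell with edgeR and 6 with DESeq2. They were Zscan4a (-3.10, adjusted p = 0.0312), Zscan4d (-2.71, adjusted p = 0.0312), Tmem92 (-2.72, adjusted p = 0.0326) and Zscan4c (-2.77, adjusted p = 0.0399), lower in 6 of 6 converted libraries. The wild type lay above all 6 converted libraries in 19% of the 15240 genes, so nothing is read from that order. The median over the 15 was -2.76. The count was 0 without conv-dSVA_F replicate 2 or either conv-dSVA_D library and 1 without conv-dSVA_F replicate 1. Without conv-dSVA_F&D replicates 1 and 2 it was 8 and 7. Here too the spread of the wild type was taken from the converted groups.

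**Figure D4:**
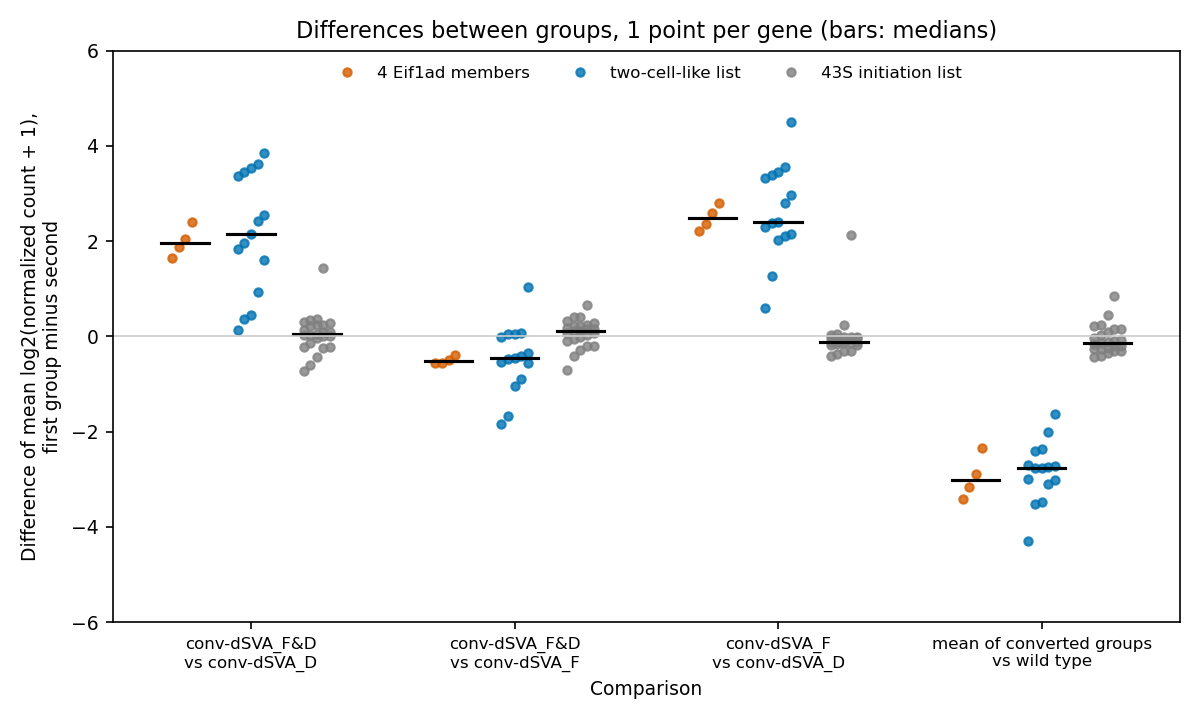
Differences between groups in mean log2(normalized count + 1) (vertical) for the 4 chosen Eif1ad copies (orange), the 15 tested genes of the 2-cell-like list (blue) and the 24 initiation factors (grey) in 4 comparisons (horizontal), 1 point per gene and black bars for medians. The medians of the orange and blue points are 1.96 and 2.15 for conv-dSVA_F&D over conv-dSVA_D and 2.48 and 2.41 for conv-dSVA_F over conv-dSVA_D, while the grey medians stay between -0.13 and 0.12.

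The sum of the 4 Eif1ad copies was set against the sum of Zscan4a to Zscan4f in each library. The Zscan4 sum was 1802 normalized counts in the wild type, 713 and 473 in conv-dSVA_F, 62.4 and 68.6 in the conv-dSVA_D pair, and 546 and 375 in conv-dSVA_F&D. The ratio of the copies to Zscan4 was 1.58 in the wild type, 1.38 and 1.05 in conv-dSVA_F, 1.68 and 1.88 in the conv-dSVA_D pair, and 1.08 and 1.12 in conv-dSVA_F&D. The summed copies thus spanned a 27.3-fold range across the libraries while their ratio to Zscan4 stayed between 1.05 and 1.88. Neither sum is per length, so the ratio has meaning only between libraries. The ratio was highest in both conv-dSVA_D libraries, where both sums were lowest.

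The gene profiles most like that of the summed copies were then ranked over the 7 libraries, by the root mean square distance of log2(normalized count + 1) after each profile was centred on its mean. Among 15236 genes, the 10 nearest were Zscan4-ps3 (0.19), Zscan4b (0.24), Pramel19 (0.29), Gm4971 (0.35), Pramel24 (0.37), Zscan4d (0.38), Zscan4f (0.42), Eif4a3l1 (0.43), Pramel31 (0.43) and Spopfm1 (0.44). Zscan4-ps3, listed as a Zscan4 pseudogene, was at 439 normalized counts in the wild type, 125 and 89.4 in conv-dSVA_F, 13.4 and 18.8 in the conv-dSVA_D pair, and 78.7 and 75.2 in conv-dSVA_F&D. Several of these genes belong to multicopy families themselves (Zscan4, Pramel), so reads may be shared there too. For Eif1ax the distance was 1.53, close to the median of 1.55 over all genes.

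Among the nearest 50 genes were 9 of the 15 tested genes of the 2-cell-like list and 3 of the 11 other Eif1ad copies with a mean of at least 10, namely Eif1ad14 (0.60), Eif1ad17 (0.64) and Eif1ad19 (0.71). The remaining 8 copies lay farther away, up to 1.39 for Eif1ad6. Eif1ad14, Eif1ad17 and Spopfm1 reached the mean of 10 only through the wild type. Their closeness to the summed copies was thus in part set by that filter. The converted groups averaged 7.855 for Eif1ad14 and 7.088 for Eif1ad17, and Spopfm1 ran from 0 to 17.9 in the converted libraries. Only Zscan4-ps3 was among the nearest 10 under all of the alternative settings and left-out libraries. The ranking kept 4 of its 10 genes without the wild-type library and 3 without conv-dSVA_D replicate 1. The ranking is a description over 7 libraries and says nothing of shared function or control.

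**Figure D5:**
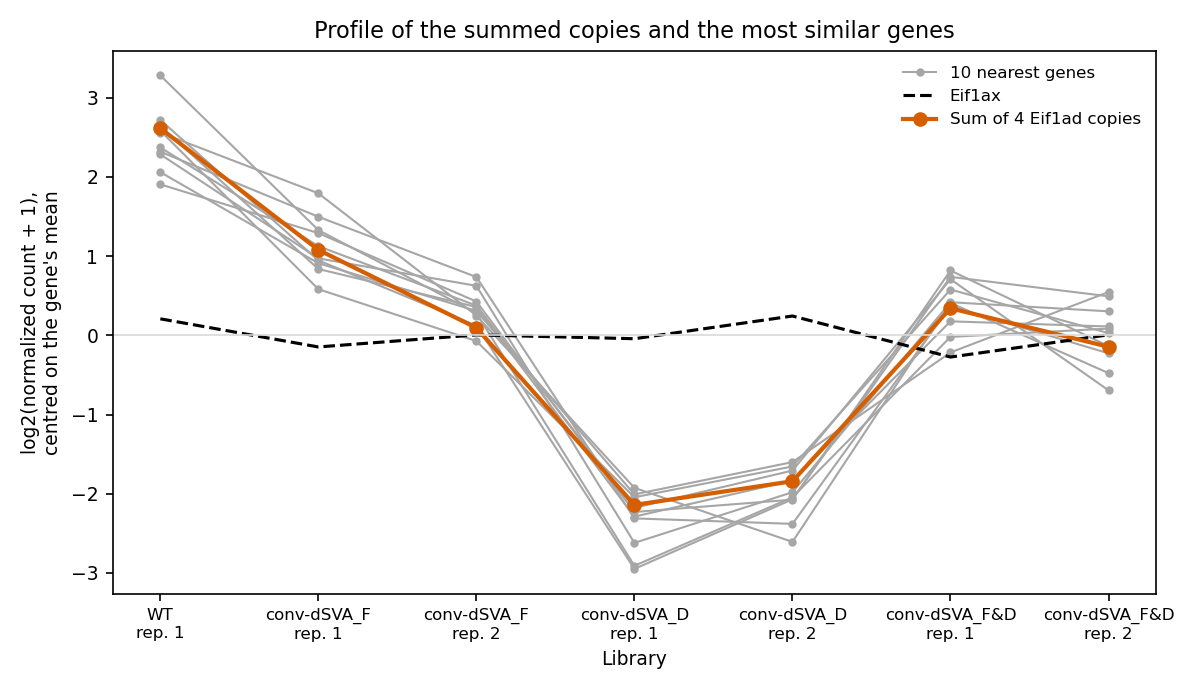
Profiles over the 7 libraries (horizontal) of log2(normalized count + 1), centred on each gene's mean (vertical), for the summed 4 Eif1ad copies (orange), the 10 nearest genes (grey) and Eif1ax (dashed). The orange and grey lines are highest in the wild type and lowest in the conv-dSVA_D libraries, and the Eif1ax line stays near 0.

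Known regulators of the 2-cell-like state, 18 genes that include the activators Dppa2 and Dppa4 and the repressors Trim28, Setdb1 and Kdm1a, were all testable. In limma 0 of the 18 passed in each of the 4 comparisons, with 2 to 7 genes at an unadjusted p under 0.05, 0 with edgeR and 0 to 2 with DESeq2. Dppa2 was at 2444 normalized counts in the wild type, 2139 and 2018 in conv-dSVA_F, 2225 and 1967 in the conv-dSVA_D pair, and 1792 and 1647 in conv-dSVA_F&D. Some listed regulators did set conv-dSVA_D apart without passing with limma, and those named next were picked for that. The share of all genes with both conv-dSVA_D libraries lowest or highest is not given here, so nothing is read from this order. A looser order, conv-dSVA_F above conv-dSVA_D without overlap, held in 26.4% of all genes tested. Rybp, a Polycomb-associated protein gene, was lowest there at 1214 and 1137, against 1371 to 1888 elsewhere (log2 difference of conv-dSVA_F over conv-dSVA_D 0.56, limma adjusted p = 0.0786), and Kat5 was lowest there at 672 and 654. Chaf1b, a subunit of the chromatin assembly factor, was highest there at 2714.5 and 2941, against 1926 to 2528 elsewhere (-0.41, limma adjusted p = 0.15). The part of these genes in the level of the copies was not tested.

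Taf1, the edited gene, was at 2898 normalized counts in the wild type, 501 and 589 in conv-dSVA_F, 362 and 418 in the conv-dSVA_D pair, and 1116 and 1088 in conv-dSVA_F&D. The sources used here do not give whether reads from its humanized segment were counted. The libraries had 16588467 to 26562418 gene reads each. Stem cell markers were high in all of them, with Pou5f1 at 18394 to 24255 normalized counts. Of 10 such markers only Nanog passed between any groups with limma (conv-dSVA_F&D against conv-dSVA_D, log2 difference -0.65, limma adjusted p = 0.0282). In that comparison 1.21% of all genes were called lower, and the Nanog call was lost without either conv-dSVA_D library. DESeq2 called 1 marker lower in that comparison, 2 lower in conv-dSVA_F than in conv-dSVA_D, and 2 higher and 1 lower against the wild type.

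Markers of other cell types differed between libraries beside the Eif1ad copies. The summed 8 fibroblast markers were at 284 normalized counts in the wild type and 52.3 to 126 in the converted libraries, led by Col1a2 at 96.0 against 0 to 8.36 and Postn at 57.9 against 0. Col1a1 was at 69.85 in the wild type against 22.12 to 36.56, and Col3a1 at 14.19 against 0 to 0.85. Pdgfra and Thy1 did not follow. They were at 16.4 and 29.5 in the wild type, within the ranges of the converted libraries (12.25 to 47.65 and 5.49 to 46.80). Lum was at 0 in all 7 libraries and Dcn at 0 in the wild type. The log2 differences of the converted groups to the wild type were -5.00 for Col1a2, -1.22 for Col1a1, -0.49 for Thy1 and 0.40 for Pdgfra. Of these 4 fibroblast markers tested, 0 passed with limma between converted groups, and the wild type is 1 library. The part of this in the wild-type level of the copies was not tested.

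The summed 9 trophoblast markers were at 1868 in the wild type, 5350.4 and 2420.03 in conv-dSVA_F, 1084 and 1191 in the conv-dSVA_D pair, and 1800.07 and 2533 in conv-dSVA_F&D. The epithelial keratin genes Krt8 and Krt18 rose over conv-dSVA_D in conv-dSVA_F&D (2.34 and 2.08, limma adjusted p = 0.0254 and 0.0303). There 1.96% of all genes were called higher. They also rose over conv-dSVA_D in conv-dSVA_F (3.70 and 3.55, limma adjusted p = 0.0114 for both), where 1.08% of all genes were called higher. Without conv-dSVA_D replicate 1 neither call held (adjusted p of Krt8 0.182 and 0.103, of Krt18 0.168 and 0.0857), nor without conv-dSVA_D replicate 2 (0.119 and 0.0667, 0.184 and 0.0776). Without conv-dSVA_F&D replicate 2 the first comparison gave 0.0811 and 0.0826, and without conv-dSVA_F replicate 1 Krt8 had 0.0689 in the other. Ascl2 was the third of the 7 tested markers of this list to rise in conv-dSVA_F&D over conv-dSVA_D (1.30, limma adjusted p = 0.0428). That call was lost without any 1 of the libraries except the wild type and conv-dSVA_F&D replicate 1. Cdx2, Krt7, Eomes and Tfap2c, the other tested genes of the list, did not pass with limma. Cdx2 had log2 differences to conv-dSVA_D of 1.49 in conv-dSVA_F&D and 3.15 in conv-dSVA_F, and Krt7 had 2.38 and 1.505. The conv-dSVA_F&D libraries differed widely for Cdx2, at 10.99 and 108.66 normalized counts. Over the 7 tested, the median log2 differences were 1.49 and 1.505. DESeq2 called 5 of the 7 higher in conv-dSVA_F&D and 3 in conv-dSVA_F. Eomes had log2 differences to conv-dSVA_D of -0.36 in conv-dSVA_F&D and -0.21 in conv-dSVA_F, and Tfap2c had 0.47 and 0.06. Elf5 and Hand1 did not reach a mean of 10 and were not tested, and both were highest in conv-dSVA_F. Elf5 was at 11.06 and 9.14 there and at 0 to 1.92 elsewhere, with 0 in both conv-dSVA_F&D libraries. Hand1 was at 11.91 and 5.08 in conv-dSVA_F and at 0 to 1.92 elsewhere. It was at 0 in the wild type, conv-dSVA_D replicate 2 and conv-dSVA_F&D replicate 2. The part of these genes in the level of the copies was not tested. The summed 8 primitive endoderm markers were at 1046 in the wild type, 1860.04 and 2023 in conv-dSVA_F, 2950 and 2579 in the conv-dSVA_D pair, and 2046 and 1248 in conv-dSVA_F&D. Most of that sum was Lama1, a laminin gene (2848 and 2475 in conv-dSVA_D). Over single genes the list had median log2 differences to conv-dSVA_D of 1.02 in conv-dSVA_F&D and 0.48 in conv-dSVA_F. Dab2, an endocytic adaptor gene, had 2.12 in both. Of the 7 tested, 0 passed in any comparison with limma (up to 3 at an unadjusted p under 0.05, 0 with edgeR, up to 1 with DESeq2). The part of these markers in the level of the copies was not tested.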

How the data were processed

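The authors deposited normalized counts (a signal per gene), which the values show to be gene counts scaled by 1 size factor for each library, with 2 decimals. Tools named in the submitters' processing notes are STAR 2.7.3, featureCounts 1.6.3 and DESeq2, then Trimmomatic 0.36, deepTools 3.1.0 and Picard 2.18.20, and the build is mm10. What each did, the strand setting, the annotation and the treatment of multiply mapping reads are not given in the sources used here. The steps between values gave back whole reads, with 100% of positive values at most 0.1 read from an integer.

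The test was limma 3.58.1 (R 4.3.3, variance trend) on log2(normalized count + 1) for 15240 genes with a mean of at least 10. It had 4 group means and no batch term, since the labels name no batch. Residual degrees of freedom were 3 and prior degrees of freedom 6.80. P-values are two-sided, adjusted over all genes by Benjamini-Hochberg, and read at a threshold of 0.05. The fit was tested on simulated data with the same replicate variation set for every gene. That test does not show how calls hold where real replicates vary more, or against the single wild-type library. edgeR 4.0.16 and DESeq2 1.42.0 were run on the recovered reads as alternatives, beside other pseudocounts (0.5 and 5), no filter, no trend, TMM factors, fits of both sides alone and leaving out each library.

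Ratios of the 4 Eif1ad genes are ratios of group means of normalized counts. The members, the 7 gene lists and the rule for named genes were chosen with earlier results of these data known. That rule takes the 4 genes, all other Eif1ad symbols, Eif1ax, Eif1a, the tested 2-cell-like genes, up to 4 called genes per other list and the 10 nearest profiles. Some further list genes, Rybp, Kat5 and Chaf1b among them, were named after their values were seen. Gene positions are from GENCODE M21 (GRCm38), matched by symbol. Replicates of a group differed by more than sampling noise (chi-square per degree of freedom of 17.8 to 33.9), so none was taken for a library deposited again; this does not show that they were separate cultures. Replicate numbers here are names only.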

Additional observations from a re-analysis of the deposited data

How the results depend on the processing

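No paired analysis was possible because the labels give the libraries of a group no replicate numbers. The group order of the 4 Eif1ad genes kept its direction with total gene reads, TMM factors and each left-out library, except between conv-dSVA_F&D and conv-dSVA_F. There the log2 ratio of the sum ranged from -0.961 to 0.025 over left-out libraries, that of Eif1ad3 from -1.335 to 0.342 and that of Eif1ad7 from -1.164 to 0.135, positive without conv-dSVA_F replicate 1. For conv-dSVA_F over conv-dSVA_D the sum ranged from 2.09 to 3.07. The Eif1ax difference between conv-dSVA_F&D and conv-dSVA_F ranged from -0.204 to 0.077 and passed under none of its alternatives.

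Counts of called list genes moved more, and the cause was not tested. For the 2-cell-like genes, no filter on low values or no variance trend gave 0 called in the 3 comparisons that had calls. Between conv-dSVA_F&D and conv-dSVA_D (6 higher), fitting both sides alone gave 2, and left-out libraries 0 to 5. Between conv-dSVA_F and conv-dSVA_D (5 higher), fitting both sides alone or DESeq2 gave 8, and left-out libraries 0 to 8. Against the wild type (4 lower), a pseudocount of 5 gave 8, edgeR 10, and left-out libraries 0 to 8. These last alternatives, those of single genes and those of the nearest profiles were chosen after seeing the data. A pseudocount of 5 kept 4 of the 10 nearest profiles.

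For the initiation factors, no call remained without the trend, or, between conv-dSVA_F&D and conv-dSVA_F (1 called), without the filter or with both sides alone. DESeq2 gave 2 there and 2 against the wild type (1 called). Left-out libraries gave 0 to 2 between conv-dSVA_F&D and conv-dSVA_F and 0 to 1 in the other 3 comparisons. Fitting conv-dSVA_F and conv-dSVA_D alone gave 1 (0 called with all libraries). The wild type, as 1 library, could not be left out of its own comparison. With 109 and 158 reads on the 4 genes, conv-dSVA_D limits the precision of every ratio to it.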
